A study of Mus musculus with 16 samples.

Results

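The immunoglobulin variable (V) segments are the gene pieces that give an antibody chain the larger part of its antigen-binding domain. They were taken here as all genes named Ighv, Igkv or Iglv in the count table of whole epididymal white adipose tissue (eWAT) that had 10 or more counts summed over 16 libraries. Of the 348 V segments in the table, 202 met this rule: 104 of the heavy chain, 95 of the kappa light chain and 3 of the lambda light chain. The other 146 were left out, 92 with no count at all and 54 with 1 to 9 counts each. These 54 held 170 counts in all, against 129020 counts in the 202 members. Just outside the threshold stood Igkv4-78 with 9 counts, and just inside it stood Ighv1-37, Ighv10-4 and Ighv5-12-4 with 10 counts each. Because the members were chosen by their summed counts, and 79.0% of those counts came from 1 of the 4 groups (eGFP, week 10), the number of members is not a measure of any group.

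All 16 mice were males of genotype C57BLKS/J-db/db, which lack a working leptin receptor and become obese and diabetic. They had received a viral vector of serotype AAV8, carrying either eGFP as the control (AAV8-eGFP) or mouse LRG1, a secreted glycoprotein, with a FLAG tag (AAV8-LRG1-FL), at 4 weeks of age. RNA of eWAT was sequenced at an age of week 7 (4 eGFP and 4 LRG1 mice) and week 10 (4 and 4). The vector carried the ubiquitous CB7 promoter, and mice were assigned to a vector by cage, so that an effect of the cage and an effect of LRG1 cannot be told apart. No group of lean mice or of mice without vector was analysed here. The question asked of the V segments was how their level, breadth and family make-up differed between the LRG1 and eGFP groups at each week, and between the weeks.

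A developing B cell builds its heavy chain gene by joining 1 V, 1 D and 1 J segment, and its light chain gene by joining V to J, at either the kappa or the lambda locus. Each B cell clone and its plasma cell offspring therefore transcribe 1 productive heavy chain V segment and 1 light chain V segment, and plasma cells carry far more of this transcript per cell than resting B cells. In fat, B cells and plasma cells sit in the stromal fraction and in small lymphoid clusters, and B-1 cells, an innate-like kind common in body cavities, use a restricted set of V segments. In RNA of whole tissue, fewer B-lineage cells and less immunoglobulin RNA per cell cannot be told apart.

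The heavy chain members lay on chromosome 12 between 113578504 and 116000461, the kappa members on chromosome 6 between 67555497 and 70704177 and the lambda members on chromosome 16 between 19085017 and 19260859 (GRCm38). By the GENCODE annotation of that build, 195 were V genes and 7 were V pseudogenes, and the pseudogenes held 0.166% of the member counts. The germline sequences of 8 members are given below from the GENCODE transcripts, as they show what was counted and how near some members are to each other. Capitals mark the last match, on the coding strand, of the pattern TANTNNTGT, which reads as a tyrosine codon, a further codon and the cysteine codon that ends the framework of the V domain. This pattern was found in the last 90 bases of 80.7% of 306 annotated V gene transcripts. The bases after it belong to the loop that V and J form together, with D between them in the heavy chain only. The animals were of another inbred strain than the C57BL/6J reference, so their own alleles may differ from these letters.

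Ighv11-2 and Igkv14-126 are shown with their last 300 bases, because they were the most abundant heavy and kappa segments of 3 libraries at week 10 and are known as the heavy and light chain of a B-1 cell antibody that binds phosphatidylcholine.
Ighv11-2 (chr12:114048241-114048812, minus strand): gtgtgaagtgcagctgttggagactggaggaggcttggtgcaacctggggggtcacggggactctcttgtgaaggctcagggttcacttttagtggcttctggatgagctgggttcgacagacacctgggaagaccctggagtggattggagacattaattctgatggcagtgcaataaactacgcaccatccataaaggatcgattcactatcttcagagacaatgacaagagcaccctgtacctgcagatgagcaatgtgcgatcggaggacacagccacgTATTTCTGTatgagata
Igkv14-126 (chr6:67896172-67896642, plus strand): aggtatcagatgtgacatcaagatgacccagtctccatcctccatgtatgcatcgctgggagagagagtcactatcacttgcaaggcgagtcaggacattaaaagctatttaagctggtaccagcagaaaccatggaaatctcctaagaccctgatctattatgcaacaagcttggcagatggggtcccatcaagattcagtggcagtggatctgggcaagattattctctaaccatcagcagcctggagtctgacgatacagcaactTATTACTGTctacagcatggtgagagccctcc

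The last 90 bases are shown for 6 further members. Ighv7-1 and Igkv15-103 were each the most abundant segment of at least 1 library, Iglv1 and Iglv2 carried most lambda counts, and Ighv1-76 and Igkv3-12 were among the members that fell in LRG1 mice.
Ighv7-1 (chr12:113896408-113896946, minus strand): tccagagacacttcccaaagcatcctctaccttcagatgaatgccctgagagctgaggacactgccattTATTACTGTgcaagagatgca
Ighv1-76 (chr12:115847881-115848331, minus strand): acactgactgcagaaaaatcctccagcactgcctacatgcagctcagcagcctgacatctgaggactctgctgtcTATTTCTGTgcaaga
Igkv15-103 (chr6:68437440-68437925, plus strand): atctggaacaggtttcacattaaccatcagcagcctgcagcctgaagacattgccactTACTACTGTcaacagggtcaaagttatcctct
Igkv3-12 (chr6:70518250-70518849, plus strand): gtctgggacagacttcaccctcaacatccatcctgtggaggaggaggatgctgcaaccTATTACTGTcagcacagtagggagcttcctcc
Iglv1 (chr16:19085017-19085500, minus strand): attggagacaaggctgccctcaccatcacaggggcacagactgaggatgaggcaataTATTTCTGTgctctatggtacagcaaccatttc
Iglv2 (chr16:19260401-19260859, minus strand): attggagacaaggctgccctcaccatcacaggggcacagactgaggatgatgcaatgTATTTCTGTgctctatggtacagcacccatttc
Iglv1 and Iglv2 differed at 3 of these 90 bases. Over all 202 members, the median share of 50-base windows found in no other annotated V segment was 78.8%, with 41 members at 100% and 22 members under 50%. It was 100% for Igkv14-126, Ighv7-1 and Igkv15-103, 77.8% for Iglv1, 78.9% for Iglv2, 61.4% for Ighv11-2 and 41.6% for Igkv3-12. Values of single members that share sequence are therefore less certain than those of families and loci.

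Library totals ran from 45376227 to 67539937 counts, and the V segments made up 0.000934% to 0.0637% of a library. Values in CPM are counts for each 1000000 counts of the TMM-adjusted library total. Lrg1, which checks the labels, spanned 86.2 to 115 CPM with eGFP and 286 to 624 CPM with LRG1, and counts do not separate the vector from the gene. The tissue's defining markers were present, as the sum of 8 adipocyte genes was 8009 CPM or more in every library. Of V counts between 1 and 100, 83.3% were even, against 59.2% for all other genes. Whether a count stands for a fragment or for a read end was not tested. The binomial intervals and floors of counts given here take each count as independent and cover counting error only. If both ends of a pair were counted, these intervals are too narrow and the folds given as at least are too high.

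The summed V segment level was lower in LRG1 than in eGFP mice at week 10 and overlapped between them at week 7, and it was far higher at week 10 than at week 7 in eGFP mice. At week 7 the 4 eGFP libraries held 1907, 2935, 1120 and 3055 V counts, and the 4 LRG1 libraries held 587, 1929, 771 and 564. These ranges overlapped, as replicate 2 of the LRG1 group lay far above the other 3. At week 10 the eGFP libraries held 40254, 11832, 21464 and 28423 V counts, and the LRG1 libraries held 6041, 2420, 4598 and 1120. Here every eGFP library lay above every LRG1 library. In CPM, the V segments summed to 35.1 ± 15.2 CPM (SD, n = 4) in eGFP and 16.03 ± 11.1 CPM in LRG1 mice at week 7, a 2.19-fold difference of the means. At week 10 they summed to 463 ± 185 CPM and 61.7 ± 36.9 CPM, a 7.51-fold difference. Without replicate 2 of the LRG1 group the ratio at week 7 was 3.33, and leaving out any 1 library gave 1.90 to 3.33 at week 7 and 6.14 to 9.85 at week 10. The mean of week 10 was 13.2-fold that of week 7 in eGFP mice and 3.85-fold in LRG1 mice. These sums are descriptions and were not tested.

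**Figure D1:**
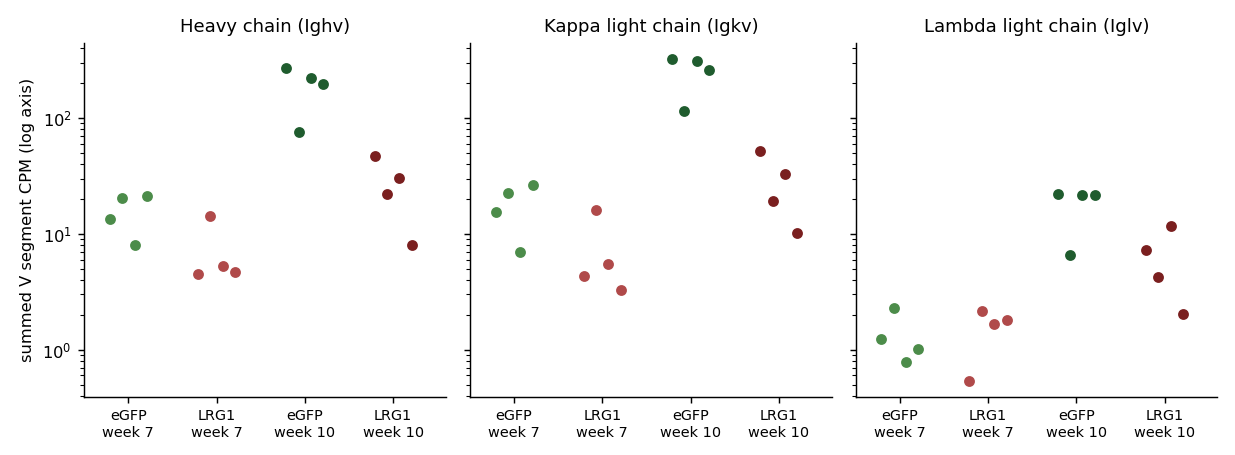
Summed V segment level in CPM (log axis) of the heavy, kappa and lambda loci, 1 point per library, 4 libraries in each of the 4 groups. At week 10 the heavy chain and kappa levels of the eGFP libraries lie above those of all LRG1 libraries, while the lambda levels of the 2 vectors overlap at both weeks.

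The 3 loci did not move by the same factor. Heavy chain V segments spanned 8.02 to 21.2 CPM with eGFP and 4.50 to 14.3 CPM with LRG1 at week 7, and 76.2 to 269.5 CPM against 7.98 to 46.7 CPM at week 10. Kappa segments spanned 7.00 to 26.5 CPM against 3.26 to 16.1 CPM at week 7, and 115.8 to 325.6 CPM against 10.2 to 51.5 CPM at week 10. The ratio of the means, eGFP over LRG1, was 2.20 for heavy and 2.46 for kappa at week 7, and 7.17 and 8.88 at week 10. For lambda it was 0.864 at week 7 and 2.84 at week 10, with levels of 0.791 to 2.30 CPM against 0.541 to 2.18 CPM at week 7, and 6.61 to 22.03 CPM against 2.04 to 11.7 CPM at week 10.

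The fit across all genes tested 122 of the 202 members in edgeR. The other 80 stayed below its filter on low counts, and a member that passed only through eGFP mice of week 10 had to differ there, so the counts below describe the members that passed and not all members. At week 7, 4 of the 122 were lower in LRG1 mice at an adjusted p below 0.01, against 10.7% of all 20822 genes tested, and none was higher, against 7.37% of all genes. In this fit the members' share called at week 7 was thus below the background. Fitted on the 8 libraries of week 7 alone, 34 members were tested and 7 of them called lower, so this reading depends on the fit. Of the 122, 40 had an unadjusted p below 0.05, and DESeq2 called 20 lower and none higher. The median log2 fold change of the 122 was -1.92, with 96 below 0, while the median over all genes tested was 0.01. At week 10, 38 members were lower, 31.1% of those tested against 5.24% of all genes. None was higher, against 3.66% of all genes, whereas 92 had an unadjusted p below 0.05 and DESeq2 called 42 lower and none higher. The median was -3.14, with 119 below 0, against a median of -0.00469 over all genes. Fitted on the 8 libraries of week 10 alone, only Ighv1-76 was called of 110 members tested, with 84 at an unadjusted p below 0.05. The count at week 10 also fell to 11 without replicate 4, 15 without replicate 3 and 25 without replicate 2 of the LRG1 group, to 22 and 25 without replicates 1 and 3 of the eGFP group, and rose to 59 without its replicate 2. At week 7 it was 2 without replicate 2 or 4 of the eGFP group, or without replicate 1, 3 or 4 of the LRG1 group.

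**Figure D2:**
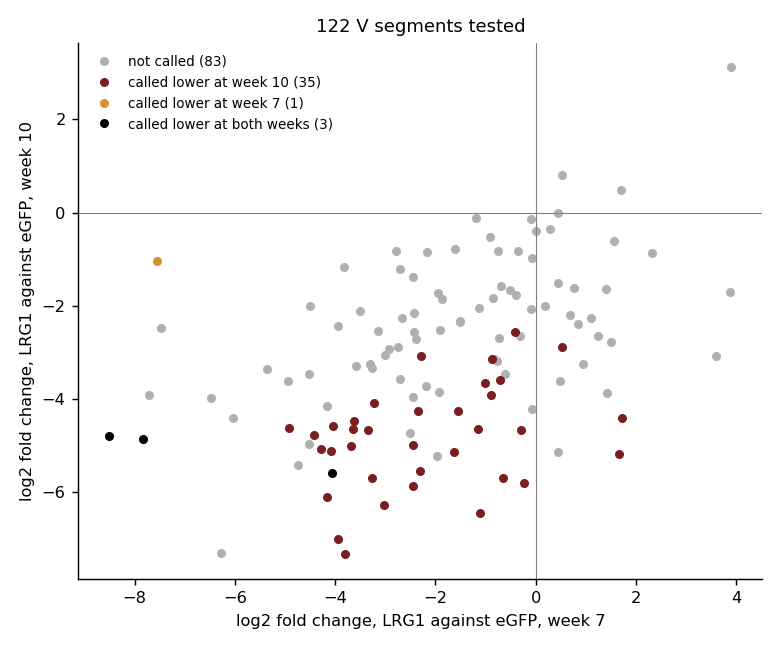
Log2 fold change of LRG1 against eGFP at week 7 (horizontal axis) and week 10 (vertical axis) for the 122 V segments tested, 1 point per segment, coloured by the edgeR call at an adjusted p below 0.01. At week 10, 119 of the points lie below 0, 38 of them called, and 3 are called at both weeks. Points near the left edge had no count in a group, and their place depends on the prior count of the fit.

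The difference between the LRG1 effects of the 2 weeks was itself tested in the same fit. No member passed, against 0.327% of all genes, while 22 of 122 had an unadjusted p below 0.05 and DESeq2 called 2, Ighv1-18 and Ighv1-74. That the difference was called for more members at week 10 is therefore not shown to be a change of the effect. In eGFP mice, 25 members were higher at week 10 than at week 7 and none was lower, which makes 20.5% of those tested, against 2.14% of all genes called either way and 0.629% called higher. In LRG1 mice no member was called between the weeks, against 0.00961% of all genes, with 51 at an unadjusted p below 0.05 and 2 called by DESeq2, Igkv4-57-1 and Ighv6-3. The median log2 fold change of the 122 between the weeks was 3.59 in eGFP and 2.38 in LRG1 mice, against -0.00928 and -0.00317 over all genes. The count of 25 in eGFP mice was 41 in DESeq2, 9 in a fit of the 8 eGFP libraries alone, 5 to 12 without any 1 of the eGFP libraries of week 7, and 42 without replicate 2 of week 10. The eGFP libraries of week 10 enter both the 38 and the 25, so these counts share control samples. Fits of only the groups compared tested 107 or 110 members with these libraries and 34 without them. Members that passed the filter through these libraries had to be higher there. The shares of 20.5% here and 31.1% between the vectors are therefore not on equal terms with those of all genes.

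Ighv1-76 was the member called at both weeks with counts in both vectors. At week 7 its counts were 12, 32, 170 and 126 in the eGFP libraries and 4, 14, 0 and 0 in the LRG1 libraries. At week 10 they were 367, 242, 104 and 194 in the eGFP libraries and 6, 4, 6 and 2 in the LRG1 libraries. The groups overlapped at week 7 and stood far apart at week 10. For week 7 edgeR gave a log2 fold change of -4.06 (SE 0.84, adjusted p = 0.00209), and for week 10 one of -5.59 (SE 0.84, adjusted p = 0.00121), and both calls held with any 1 library left out.

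The other 3 members called at week 7 had no count in any LRG1 library of that week. Ighv1-81 had 58, 44, 24 and 69 counts in the eGFP libraries (edgeR, adjusted p = 6.7e-04). With a floor of 3 counts over the 4 LRG1 libraries, and each count taken as independent, it was at least 60.2-fold lower in LRG1 mice. Igkv4-57-1 had 14, 16, 4 and 66 counts and was at least 30.9-fold lower (adjusted p = 0.00655), but only at least 13.8-fold without replicate 4 of the eGFP group, which held 66 of its 100 counts. Igkv3-1 had 52, 20, 1 and 48 counts and was at least 37.3-fold lower (adjusted p = 0.00896). The call of Ighv1-81 held with any 1 library left out, while Igkv4-57-1 and Igkv3-1 lost theirs without any of 7 of the 8 libraries, at adjusted p values of 0.0111 to 0.0177 and 0.0157 to 0.0244, and under the replicate block (0.0197 and 0.0182). At week 10, Ighv1-81 was again lower in LRG1 mice by edgeR (-4.78, SE 0.81, adjusted p = 0.00256), as was Igkv3-1 (-4.85, SE 0.97, adjusted p = 0.00493), whereas Igkv4-57-1 did not pass (-1.04, SE 0.92, adjusted p = 0.445).

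The members with the smallest adjusted p at week 10 came from the Igkv3 and Ighv1 families. Igkv3-12 stood at 5.92, 0.974, 6.27 and 0.877 CPM in the eGFP libraries against 0.0524, 0.0758, 0.131 and 0 CPM in the LRG1 libraries, a log2 fold change of -5.69 (SE 0.81, edgeR, adjusted p = 0.00104). Ighv1-18 was at 6.19, 0.839, 7.65 and 1.59 CPM and at 0, 0.114, 0.0980 and 0.0721 CPM, a change of -5.80 (SE 0.84, adjusted p = 0.00106). Igkv3-10 was at 6.65, 3.44, 2.99 and 1.15 CPM and at 0.0524, 0.341, 0.131 and 0 CPM, a change of -4.77 (SE 0.75, adjusted p = 0.00139). In each of the 3, the lowest eGFP library lay above the highest LRG1 library, and the call held with any 1 library left out. At week 7, Ighv1-18 had been low in both groups, with 12, 2, 4 and 10 counts in eGFP and 0, 8, 8 and 6 in LRG1 libraries (-0.24, SE 0.97, adjusted p = 0.876). By family, the 38 members called lower at week 10 held 8 of Ighv1, 6 of Igkv3, 4 each of Igkv4 and Igkv6, 3 of Igkv12, and 13 of 10 other families.

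Ighv11-2 and Igkv14-126, the phosphatidylcholine-binding pair, rose steeply between the weeks in eGFP mice. Ighv11-2 had 4, 38, 0 and 15 counts in the eGFP libraries of week 7 and 393, 881, 1837 and 938 in those of week 10. Igkv14-126 had 44, 50, 4 and 40 counts at week 7 and 860, 2125, 3457 and 1860 at week 10. The weeks did not overlap for either. The log2 fold change between the weeks was 6.56 (SE 0.91, edgeR, adjusted p = 5.99e-04) for Ighv11-2 and 6.30 (SE 0.84, adjusted p = 4.66e-04) for Igkv14-126. In replicates 2, 3 and 4 of eGFP week 10, Ighv11-2 ranked first among heavy chain segments and Igkv14-126 first among kappa segments. There they made up 19.4%, 21.4% and 7.99% of heavy chain and 30.8%, 28.7% and 12.1% of kappa V counts, against 2.24% and 4.05% in replicate 1.

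In LRG1 mice of week 10 the same pair was at a lower level but at a share that overlapped that of the eGFP mice. Ighv11-2 stood at 6.03, 14.8, 47.8 and 15.8 CPM in eGFP mice against 1.83, 0.417, 3.40 and 0.919 CPM in LRG1 mice (-3.67, SE 0.75, edgeR, adjusted p = 0.00404). Igkv14-126 stood at 13.2, 35.7, 89.96 and 31.4 CPM against 3.70, 1.33, 6.68 and 2.20 CPM (-3.60, SE 0.71, adjusted p = 0.00339). The levels of the 2 vectors did not overlap. Without replicate 3 of the eGFP group, or replicate 1 or 4 of the LRG1 group, neither call was kept, with adjusted p values of 0.0133 to 0.0196 for Ighv11-2, which also lost it without replicate 2 of the LRG1 group (0.0104), and of 0.0119 to 0.0169 for Igkv14-126. As a share of the locus, Ighv11-2 made up 1.88% to 11.5% and Igkv14-126 6.82% to 21.6% in the LRG1 libraries, against 2.24% to 21.4% and 4.05% to 30.8% in the eGFP libraries. At week 7 neither Ighv11-2 (-1.01, SE 1.26, adjusted p = 0.579) nor Igkv14-126 (-0.72, SE 1.00, adjusted p = 0.623) passed. Another phosphatidylcholine-binding pair, Ighv12-3 with Igkv4-91, was looked at after its values were seen. Igkv4-91 had 0, 8, 0 and 8 counts in eGFP mice at week 7 and 370, 334, 160 and 412 at week 10 (6.46, SE 0.99, adjusted p = 0.00126), and 32, 8, 20 and 0 in LRG1 mice at week 10 (-4.41, SE 0.85, adjusted p = 0.00308). Ighv12-3 had 0 to 2 counts in eGFP mice at week 7 and 6 to 60 at week 10, and was too low to test. Of the 25 members called higher at week 10 in eGFP mice, Ighv11-2, Igkv4-91 and Igkv14-126 had the 3 largest log2 fold changes. This ranking was made after the values were seen and covers called members only. A steep rise was not particular to these pairs, as Ighv5-12 had 3, 0, 0 and 0 counts in eGFP mice at week 7 and 59, 65, 78 and 131 at week 10.

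Ighv7-1, the heavy chain segment of many antibodies to phosphorylcholine, and Igkv15-103 did not pass the test between vectors at either week, although both were abundant. At week 10 Ighv7-1 stood at 2.77, 3.73, 9.08 and 3.10 CPM in eGFP mice against 5.45, 2.31, 3.18 and 1.86 CPM in LRG1 mice (-0.53, SE 0.73, edgeR, adjusted p = 0.640). Igkv15-103 stood at 6.22, 3.39, 9.63 and 3.61 CPM against 4.79, 0.152, 5.36 and 2.85 CPM (-0.79, SE 0.78, adjusted p = 0.502). The ranges of the 2 vectors overlapped for both, and a p that misses the threshold does not show equal levels. At week 7 the values were -0.92 (SE 0.80, adjusted p = 0.412) and -1.60 (SE 0.88, adjusted p = 0.183). As a share of heavy chain V counts, Ighv7-1 made up 1.03% to 4.89% in eGFP and 10.4% to 23.3% in LRG1 libraries of week 10, with no overlap, and it ranked between 1 and 3 among heavy chain segments in all 4 LRG1 libraries. At week 7 this share overlapped, at 1.06% to 18.3% against 0% to 21.6%, and it was not tested at either week. Igkv7-33, a kappa segment known to pair with Ighv7-1 and looked at after its values were seen, had 16, 36, 7 and 28 counts in eGFP mice of week 10 and none in the other 12 libraries.

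**Figure D3:**
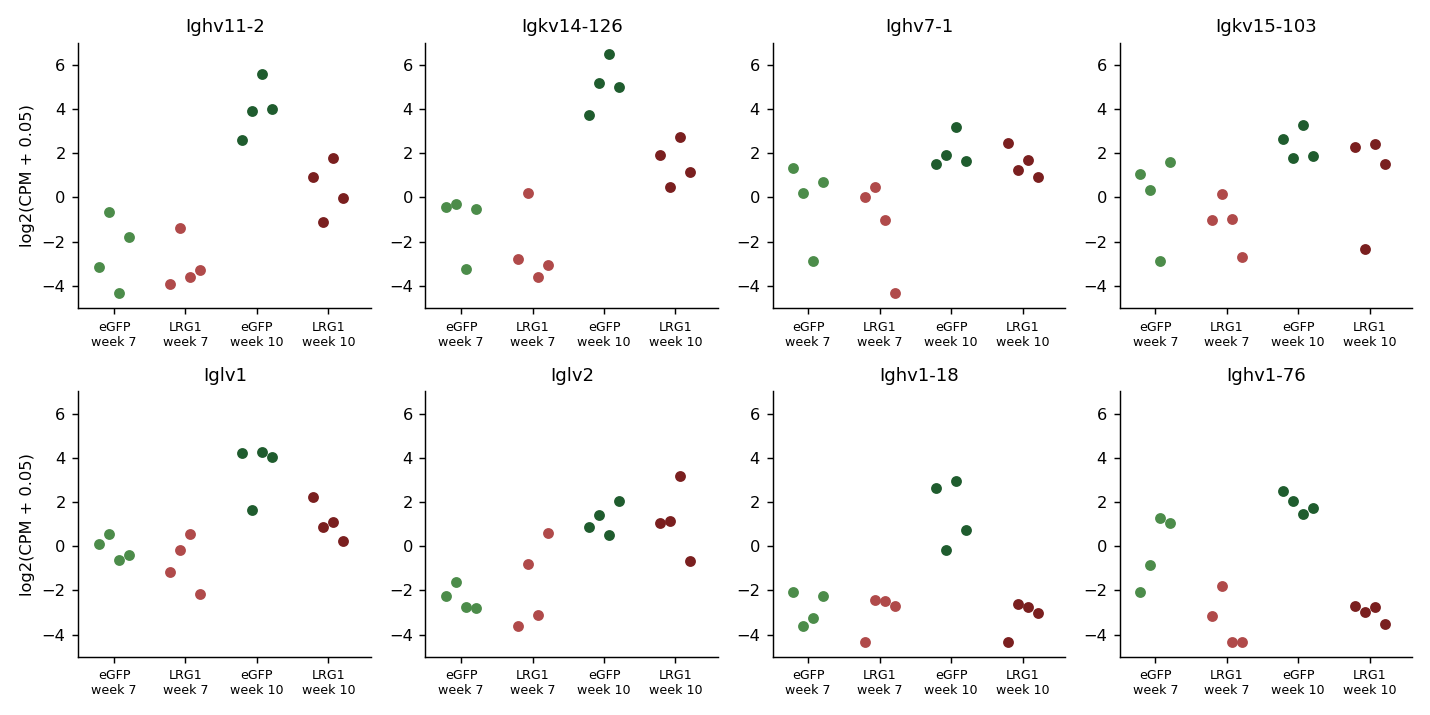
Level of 8 V segments as log2(CPM + 0.05), 1 point per library, by vector and week. Ighv11-2, Igkv14-126, Ighv1-18 and Ighv1-76 separate the vectors at week 10, while Ighv7-1, Igkv15-103 and Iglv2 overlap.

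The lambda share of the light chain V counts was higher in every LRG1 library than in every eGFP library at both weeks. At week 7 it was 7.41%, 9.19%, 10.1% and 3.71% in eGFP mice and 11.2%, 11.9%, 23.1% and 35.5% in LRG1 mice, a difference of 12.8 percentage points (exact two-sided permutation test, p = 0.0286, the smallest that 4 against 4 allows, adjusted p = 0.0857 over 12 comparisons). At week 10 it was 6.34%, 5.40%, 6.50% and 7.71% in eGFP mice and 12.5%, 17.9%, 26.1% and 16.7% in LRG1 mice, a difference of 11.8 points (exact permutation p = 0.0286, adjusted p = 0.0857). Neither passed the threshold of 0.05 after adjustment. Counting error alone, with each count taken as independent, gave 7.87% to 15.3% (exact 95% interval) for the lowest LRG1 library of week 7. That interval, from 34 of 304 counts, overlapped the eGFP libraries. For the lowest LRG1 library of week 10 the interval was 11.4% to 13.6%, which did not overlap them. Without the most abundant segment of each library, the difference fell to 1.73 points at week 7 and 7.43 points at week 10. That segment was a lambda segment in replicates 3 and 4 of LRG1 week 7 and replicate 3 of LRG1 week 10, and in no eGFP library. As the step took lambda counts from LRG1 libraries only, the fall cannot be read as a test of the difference.

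Among the 3 lambda members, Iglv1 fell and Iglv2 and Iglv3 did not pass. At week 10 Iglv1 stood at 18.2, 3.09, 19.3 and 16.1 CPM in eGFP against 4.61, 1.80, 2.07 and 1.14 CPM in LRG1 libraries (-2.55, SE 0.57, edgeR, adjusted p = 0.00632). Iglv2 stood at 1.78, 2.58, 1.38 and 4.08 CPM against 2.04, 2.16, 8.98 and 0.577 CPM (0.48, SE 0.77, adjusted p = 0.692). Iglv3 stood at 2.02, 0.940, 1.15 and 1.50 CPM against 0.681, 0.284, 0.686 and 0.324 CPM (-1.50, SE 0.62, adjusted p = 0.0932). The vectors overlapped for Iglv1 and Iglv2 and did not overlap for Iglv3. Iglv1 made up 46.7% to 88.4% of lambda counts in eGFP and 17.7% to 62.9% in LRG1 libraries of that week. The call of Iglv1 was lost without any of 5 of the 8 libraries of week 10 (adjusted p of 0.0180 to 0.0253) and under the replicate block (0.0112).

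The heavy chain share of all V counts, in contrast, stayed in a narrow band. It was 43.5% to 50.7% in eGFP and 42.3% to 48.2% in LRG1 libraries of week 7, and 38.3% to 43.7% and 39.6% to 48.3% at week 10. The differences were -0.42 points (exact permutation p = 0.914, adjusted p = 0.914) and 2.26 points (exact permutation p = 0.371, adjusted p = 0.446).

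Fewer V segments were seen in LRG1 mice of week 7 also at equal depth, a difference that did not pass after adjustment. A count fell on 128, 136, 116 and 133 members in the eGFP libraries and on 59, 117, 56 and 66 in the LRG1 libraries of week 7, and on 183, 167, 169 and 179 against 161, 129, 112 and 73 at week 10. Over the 4 libraries of a group together, 170 members had a count in eGFP mice and 145 in LRG1 mice of week 7, against 200 and 182 for week 10. As these numbers grow with the counts drawn, each library was reduced to 564 V counts, the number in the smallest library. The expected number of segments was then 105 ± 2.18 (SD, n = 4) in eGFP and 67.7 ± 16.9 in LRG1 mice at week 7, with no overlap, a difference of -37.5 segments (exact permutation p = 0.0286, adjusted p = 0.0857). At week 10 it was 104.5 ± 4.98 and 87.0 ± 19.9, a difference of -17.5 that overlapped (exact permutation p = 0.171, adjusted p = 0.343). Replicates 1 and 2 of the LRG1 group of week 10, at 105.1 and 102, lay within the eGFP range of 98.1 to 109.8, and replicates 3 and 4 lay below it at 76.9 and 63.9.

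The effective number of segments, which weighs each segment by its share, was 68.1 ± 13.2 in eGFP and 34.6 ± 14.7 in LRG1 mice at week 7 (exact permutation p = 0.0571, adjusted p = 0.137), and 65.3 ± 15.1 and 49.8 ± 20.3 at week 10 (exact permutation p = 0.257, adjusted p = 0.343). The most abundant segment held 3.88% to 15.2% of V counts in eGFP and 7.47% to 19.3% in LRG1 libraries of week 7 (exact permutation p = 0.257, adjusted p = 0.343), and 5.84% to 17.96% and 5.63% to 14.1% at week 10 (exact permutation p = 0.514, adjusted p = 0.561). The eGFP groups of both weeks had nearly the same breadth at 564 counts, 105 and 104.5, although their V level differed 13.2-fold.

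**Figure D4:**
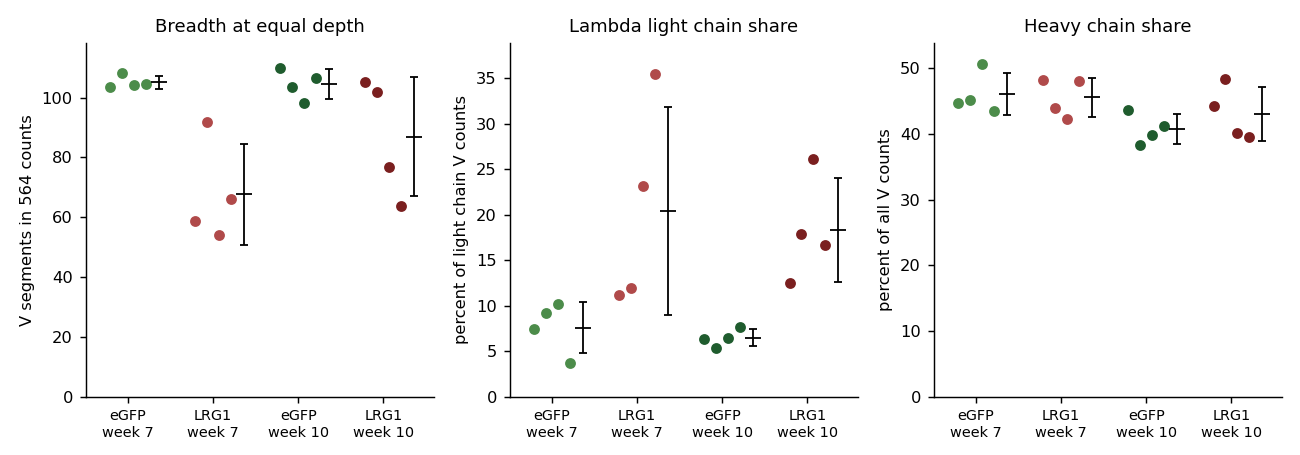
Number of V segments expected in 564 V counts, lambda share of light chain V counts and heavy chain share of all V counts, 1 point per library, with the mean ± SD of each group (n = 4) in black. The LRG1 libraries of week 7 lie at 54.0 to 91.9 segments, below all eGFP libraries, and the lambda share is above 11% in all 8 LRG1 libraries.

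The 202 members fell into 37 V families, defined by sequence likeness and named by the number before the hyphen, of which 31 could be tested as summed counts. At week 7 only Igkv3 was lower in LRG1 mice by edgeR (-3.66, SE 0.73, adjusted p = 0.00155). That is 3.23% of the families tested, below the 10.7% of all genes called lower. Of the 31, 9 had an unadjusted p below 0.05. At week 10, 12 families were lower and none higher, against 5.24% of all genes called lower. For the difference of effects between the weeks no family of the 31 passed, against 0.327% of all genes, with 7 at an unadjusted p below 0.05. The 12 families lower at week 10 were Ighv1, Ighv8 and Ighv11 of the heavy chain, Igkv3, Igkv4, Igkv6, Igkv10, Igkv12, Igkv13, Igkv14 and Igkv19 of kappa, and Iglv1. Of these 12, Igkv3 had the smallest adjusted p at week 10 (-4.75, SE 0.61, edgeR, adjusted p = 7.9e-04), followed by Ighv1 (-3.52, SE 0.56, adjusted p = 0.00143). With only the 8 libraries of week 10, no family passed, with 25 of 31 at an unadjusted p below 0.05, while DESeq2 on all 16 libraries called 14. The 12 also fell to 5 and 6 without replicate 3 or 4 of the LRG1 group.

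Igkv3 also made up less of the kappa V counts in LRG1 mice at both weeks. It was at 16.3%, 14.4%, 13.9% and 9.09% in eGFP and 1.48%, 3.36%, 1.46% and 1.06% in LRG1 libraries of week 7. At week 10 it was at 14.2%, 11.9%, 7.70% and 10.8% in eGFP and 4.75%, 4.29%, 1.33% and 4.43% in LRG1 libraries. The vectors did not overlap at either week, and all 9 members of this family lie on chromosome 6. These shares were looked at after the family was called and were not tested.

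Ighv1, the largest heavy chain family with 50 members, made up 48.1% ± 8.14 (SD, n = 4) of the heavy chain V counts in eGFP and 35.3% ± 16.9 in LRG1 mice at week 7 (exact permutation p = 0.257, adjusted p = 0.343). At week 10 it made up 42.0% ± 6.38 and 25.9% ± 6.73, with 37.1% to 51.0% in eGFP and 17.3% to 33.7% in LRG1 libraries and no overlap (exact permutation p = 0.0286, adjusted p = 0.0857). Ighv1 segments lie mostly in the part of the locus far from the constant genes. The 52 heavy chain members nearest the constant genes held 41.6% to 60.4% of heavy chain V counts in eGFP and 64.8% to 82.1% in LRG1 libraries of week 10, and 38.7% to 55.3% and 48.1% to 77.1% at week 7. Ighv7 went the other way at week 10, with 3.23% to 6.08% in eGFP and 11.9% to 25.1% in LRG1 libraries, but overlapped at week 7, with 2.11% to 19.2% and 6.27% to 21.9%. Its share was not tested.

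Shares of other families varied widely between mice of a group. Igkv4, with 25 members, made up 8.41% to 14.1% of kappa V counts in eGFP and 17.7% to 51.1% in LRG1 libraries of week 7, with no overlap, and 9.63% to 15.7% and 2.13% to 16.9% at week 10. Igkv14 was at 5.96% to 35.8% in eGFP and 10.7% to 26.7% in LRG1 libraries of week 10, and Igkv15 at 1.39% to 3.07% and 0.780% to 28.0%.

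**Figure D5:**
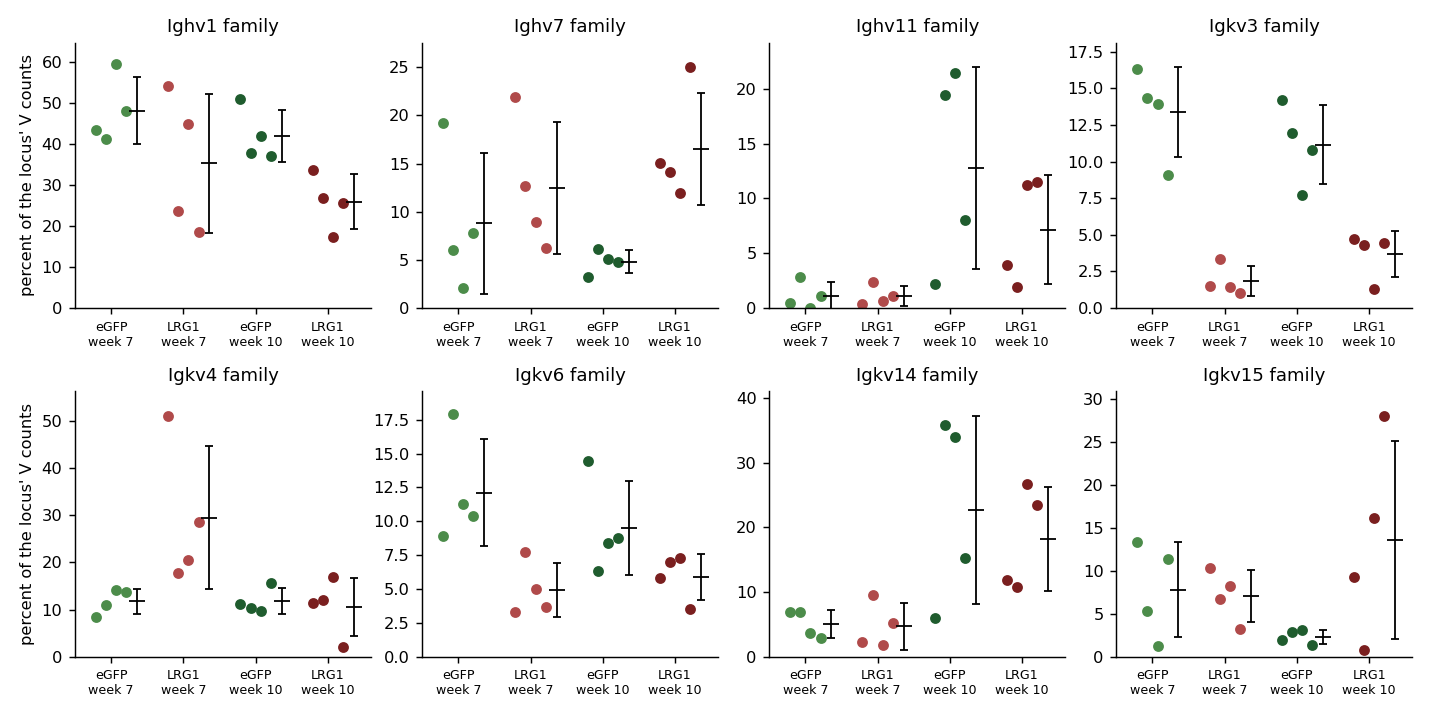
Share of 8 V families in the V counts of their locus in percent, 1 point per library, with the mean ± SD of each group (n = 4) in black. The Igkv3 share is 7.70% or more in all eGFP and 4.75% or less in all LRG1 libraries, while the Igkv14 share runs from 5.96% to 35.8% within the eGFP group of week 10.

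Single mice carried many of the counts of single members. Of 140 members with 100 or more counts, 54 had over 50% of them in 1 library, and that library was an eGFP library of week 10 for 49, an LRG1 library of week 10 for 4 and an LRG1 library of week 7 for 1. As the eGFP libraries of week 10 held 79.0% of all member counts, these numbers depend on the V counts of each library. Igkv4-62 had 588 of its 600 counts in replicate 4 of eGFP week 10, and Ighv1-2, Igkv8-18 and Igkv4-58 had 88.5%, 88.1% and 84.6% of their counts in 1 library. In replicate 1 of LRG1 week 7, Ighv1-34 held 113 of 283 heavy chain V counts, 39.9%, with 0 in the other 3 libraries of that group. Ighv1-22 had 2350 counts in replicate 1 of eGFP week 10 and 32, 650 and 121 in the other 3. The most abundant segment was Igkv14-126 in 3 of the 4 eGFP libraries of week 10, and was a different member in each LRG1 library of week 7, Ighv1-34, Igkv16-104, Iglv1 and Iglv2 in turn. It was Ighv7-1, Igkv1-135, Ighv1-76 and Igkv15-103 in the eGFP libraries of week 7, and Igkv8-27, Ighv14-4, Iglv2 and Igkv15-103 in the LRG1 libraries of week 10. At week 10, Igkv8-27 (0.81, SE 1.04, edgeR, adjusted p = 0.615) and Ighv14-4 (-0.36, SE 1.08, adjusted p = 0.844) did not pass between the vectors, and Igkv1-135 did not either (-2.15, SE 0.69, adjusted p = 0.0345). Only 15 of the 202 members had a count in all 16 libraries, a number that grows with the counts drawn. Within a group, 78 members had a count in all 4 eGFP and 21 in all 4 LRG1 libraries of week 7, and 147 and 46 in those of week 10. These numbers too grow with the V counts, which were lower on average in the LRG1 groups.

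Kappa V counts kept step with the kappa constant gene Igkc in every group, while heavy chain V counts did not keep step with the heavy chain constant genes. For 1000 counts of Igkc there were 259 to 279 kappa V counts in eGFP and 216 to 311 in LRG1 libraries of week 7, and 237 to 332 and 228 to 348 at week 10. For 1000 counts of heavy chain constant genes there were 19.3 to 47.7 heavy chain V counts in eGFP and 6.75 to 19.4 in LRG1 libraries of week 7, and 92.5 to 139 and 9.61 to 44.1 at week 10. Ighm, the constant gene of IgM, made up 78.9% or more of these constant counts in eGFP libraries of week 7, and 96.7% or more with LRG1 at both weeks. In eGFP libraries of week 10 its share was 34.6% to 81.2%. Its level at week 7 was higher in LRG1 mice, with 602 to 770 CPM against 323 to 383 CPM (0.95, SE 0.16, edgeR, adjusted p = 4.0e-04), while the mean heavy chain V level was the lower one. At week 10 it did not pass, with 676 to 1064 CPM against 668 to 1001 CPM (0.12, SE 0.16, adjusted p = 0.612). The source of these Ighm counts was not tested.

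Some genes of the cells that could carry V transcripts were also called lower in LRG1 mice, and these counts stand against 10.7% of all genes called lower at week 7 and 5.24% at week 10. Of 11 immunoglobulin constant genes tested, 3 fell and 1 rose at week 7, and 4 fell at week 10. Of 14 B cell markers, 2 fell at week 7, the inhibitory B cell co-receptor Cd22 (-1.46, SE 0.39, adjusted p = 0.00923) and Cd37 (-1.001, SE 0.23, adjusted p = 0.00419), 1 fell at week 10, Cd37, and none rose. They summed to 42.3 to 73.3 CPM with eGFP and 23.8 to 44.4 CPM with LRG1 at week 7, and to 74.9 to 127.1 CPM and 25.03 to 101.9 CPM at week 10. Ms4a1, which encodes the B cell surface protein CD20, did not pass at week 10 (-1.14, SE 0.71, edgeR, adjusted p = 0.264). Of 13 plasma cell genes tested, 4 fell at week 7 (Prdm1, Sdc1, Slamf7 and Tnfrsf13b) and 3 at week 10, and none rose. Of the 13, 10 had a log2 fold change below 0 at week 7 and 12 at week 10. Which cells carried the transcripts of the called genes was not tested. The level of Jchain, whose product links IgM and IgA chains in plasma cells, spanned 2.53 to 9.56 CPM with eGFP and 1.30 to 6.97 CPM with LRG1 at week 7. It did not pass at that week (-1.06, SE 0.53, edgeR, adjusted p = 0.138). At week 10 it spanned 32.2 to 59.5 CPM against 4.36 to 22.9 CPM (-1.84, SE 0.51, adjusted p = 0.0177). The plasma cell genes did not all move with the V segments between the weeks in eGFP mice. There Jchain rose (2.94, SE 0.53, edgeR, adjusted p = 0.00409) and Prdm1 fell (-1.16, SE 0.18, adjusted p = 0.00138), the only 2 of the 13 called. Sdc1 (-0.49), Tnfrsf13b (-0.30) and Slamf7 (0.23) did not pass. Of all genes, 2.14% were called either way.

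Ighg1, the constant gene of IgG1, spanned 12.9 to 52.9 CPM with eGFP and 0 to 0.135 CPM with LRG1 at week 7, and 109 to 1029 CPM against 0.180 to 1.76 CPM at week 10 (-9.73, SE 0.90, edgeR, adjusted p = 1.2e-04). The recombinase genes Rag1 and Rag2, which cut V segments in B cell precursors, had 14 and 6 counts over all 16 libraries.

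All 12 T cell markers fell in LRG1 mice at week 7, against 10.7% of all genes, and 4 fell at week 10, against 5.24%, where the other 8 were below 0 too. The difference between these effects was not tested. In eGFP mice, in which 25 V segments rose, 3 of the 12 fell from week 7 to week 10, where 2.14% of all genes were called either way. The 87 T cell receptor V segments with a count summed to 4.73 to 10.7 CPM with eGFP and 0.668 to 1.18 CPM with LRG1 at week 7, and to 2.004 to 4.74 CPM and 0.82898 to 1.61 CPM at week 10. Of these 87, 7 could be tested, of which 4 were lower at week 7 and none at week 10. Of 8 macrophage markers, 7 fell at each week, with sums of 3861 to 4916 CPM with eGFP and 1763 to 1998 CPM with LRG1 at week 7, and 2574 to 6314 CPM against 1660 to 2261 CPM at week 10. The 8 adipocyte markers summed to 11700 to 12412 CPM with eGFP and 15638 to 19461 CPM with LRG1 at week 7, and to 8009 to 16907 CPM against 18319 to 19693 CPM at week 10, so every LRG1 library lay above every eGFP library of its week. Of these 8, 1 rose at each week, at week 7 the lipid droplet gene Cidec (0.78, SE 0.16, edgeR, adjusted p = 0.00199). The part of T cells, macrophages and adipocytes in the V segment values was not tested.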

How the data were processed

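Gene counts of eWAT RNA from 16 db/db mice were used, 4 per vector and week. As deposited by the authors, these are counts per Ensembl gene, not normalized, made by trimming with cutadapt, aligning with STAR to mm10 (GRCm38) and counting with featureCounts, per the labels and the paper. Tool versions, strand and multi-mapping settings, and whether reads or pairs were counted, are not given in the sources used here. A symbol was found for 55394 of the 55573 genes in the table. Gene lengths were not used.

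The quasi-likelihood test of edgeR 4.0.16 (R 4.3.3) was run on all 16 libraries together, each group having its own coefficient, after TMM normalization and the filterByExpr filter, which kept 20822 genes. The common coefficient of biological variation was 0.203. Calls were made at a Benjamini-Hochberg adjusted p below 0.01 over all genes. Standard errors were derived from each log2 fold change and its F statistic. V families were fitted in the same way after their members' counts were summed. Measures of composition (6) at 2 weeks were compared with exact permutation tests (two-sided, SciPy 1.17.1) and adjusted over the 12. Rarefaction was computed analytically. Shares of single libraries have exact Clopper-Pearson 95% intervals. The procedure was tested on simulated data. The labels call the samples separate mice only by number, so p-values measure the spread between these samples.

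Alternatives were DESeq2 1.42.0, RLE and library size scaling, no filter on low counts, fits of only the groups compared, a replicate block, a threshold of 100 counts for members, omission of the most abundant segment of each library, a rarefaction depth of 141 counts, and leaving out each library. Halving all counts was chosen after seeing the data. The members, gene lists, measures and rules were chosen with earlier results of these data known. Named are the 4 most abundant members per locus by mean share, the 4 with the smallest adjusted p per comparison of vectors and direction, the most abundant of each library, the 4 with 100 or more counts that are most concentrated in 1 library, and those next to the threshold. Marker lists name up to 4 genes by adjusted p at week 7, and further list genes (Ms4a1, Jchain, Rag1, Rag2) and week contrasts were named after their values were seen.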

Additional observations from a re-analysis of the deposited data

Results flagged for a closer look

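The gap of the highest or lowest library to its neighbour, divided by the range of its group, passed Dixon's 95% critical value for 4 samples in 8 of 96 sets of 4 libraries. Chance gives about 4.8 of 96. Replicate 2 of the LRG1 group of week 7 was far above the other 3 in summed V level (32.6 CPM), in heavy chain V level (14.3 CPM) and in heavy chain V counts for 1000 heavy chain constant counts (19.4). Replicate 2 of the eGFP group of week 10 was far below in lambda V level (6.61 CPM).

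Among the abundant members, the share of the locus stood apart for Ighv7-1 in replicate 4 of LRG1 week 10 (23.3%), Ighv9-3 in replicate 2 of eGFP week 7 (5.44%), Igkv12-44 in replicate 3 of eGFP week 7 (21.8%) and Igkv16-104 in replicate 2 of LRG1 week 10 (9.94%).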

How the results depend on the processing

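The direction held for every count of calls. Of members called lower at week 7, 4 in the fit as reported, there were 20 in DESeq2, 7 with library size scaling, 8 with no filter, 7 with only the libraries compared, and 2 to 6 with 1 library left out. At week 10 the 38 became 61 with no filter, 1 with only the libraries compared and 11 to 59 with 1 library left out. Between weeks in eGFP mice the 25 became 41 in DESeq2, 48 with no filter, 9 with only the libraries compared and 5 to 42 with 1 library left out. DESeq2 called 2 members for the difference of effects and 2 between weeks in LRG1 mice, where edgeR called none (0 to 0 with 1 library left out). Families lower at week 7, 1 as reported, were 3 in DESeq2, 2 with no filter, 5 with only the libraries compared and 1 to 2 with 1 library left out (2 without replicate 2 of LRG1). The 12 families of week 10 became 19 with no filter, 0 with only the libraries compared, where the smaller fit left 25 at an unadjusted p below 0.05, and 5 to 18 with 1 library left out. Replicate numbers did not pair the mice (24 pairs, median correlation of deviations -0.01, from -0.20 to 0.142), and the replicate block gave 4 members at week 7, 30 at week 10 and 9 between weeks in eGFP mice, and 1 and 9 families. With counts halved, chosen after seeing the data, these were 3, 48, 35, 1 and 16. The cause of these shifts was not tested. The heavy chain share at week 7 turned from -0.42 to 3.12 points without the most abundant segment, and with 1 library left out it ran from -1.29 to 1.14 points, being positive without replicate 3 of eGFP (1.14) and without LRG1 replicate 2 (0.15) or 3 (0.69). The share of the most abundant segment at week 10 turned to 1.17 points without that segment. With 1 library left out, log2 fold changes turned sign for Ighv7-1 at week 10 (-0.91 to 0.0016), Ighv11-2 at week 7 (-2.67 to 0.14), Ighv9-3 at week 7 (-1.69 to 0.44), Igkv16-104 at week 7 (-1.53 to 1.81), Iglv2 at week 10 (-0.63 to 0.84) and Iglv3 at week 7 (-0.58 to 1.48). None of these had passed the test. Few V counts stand behind the values of week 7, as few as 564 in an LRG1 library.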
